A study of Mus musculus with 4 samples.

Results

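The genes examined were 9 regulators and markers of the trophoblast lineage: Cdx2, Gata3, Eomes, Elf5, Tfap2c, Tead4, Hand1, Krt8 and Krt18. Every probe that carries one of these gene names was taken, which gave 12 probes of the 39429 on the array and 9 genes of the 30199 gene names it holds. Total RNA of E14tg2a cells, a mouse embryonic stem (ES) cell line grown on gelatin without feeder cells in serum and LIF, was labeled with Cy3 and hybridized to 4 arrays. Of the arrays, 1 held untreated cells, whose label gives no time, and 1 held cells transfected with control siRNA for 72 h. The others held cells transfected with Rif1 siRNA (Rif1 KD) for 48 h or 72 h. The methods name the Rif1 siRNAs as a pair, mRif1#2 and NC#1, and Rif1 is a chromatin protein that controls replication timing. With 1 array per condition, the differences have neither replicates nor p-values nor an SD, and their precision is limited by the number of arrays. No array of control siRNA at 48 h was analysed here, so both Rif1 KD arrays were set against the control at 72 h and share it.

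The trophoblast is the first lineage that leaves the early embryo, forming the outer epithelium of the blastocyst, the trophectoderm, and later much of the placenta. In the outer cells of the embryo Tead4, together with its coactivator Yap1, turns on Cdx2 and Gata3, which in turn keep the trophoblast programme on and the pluripotency programme off, and Eomes, Elf5 and Tfap2c hold the state of trophoblast stem cells. ES cells come from the inner cells and express this programme weakly, although forced expression of Cdx2 or Gata3 can turn them toward trophoblast.

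Each array probe is an oligonucleotide of 60 bases, and the values of Cdx2 and Gata3 rest on 1 probe each, so the first 30 bases of these probes are printed, as written on the array, to show what was hybridized.
Cdx2 probe (mm9 chr5:148112547-148112606, minus strand): gccttttaaaaagccttcttgatccatggg
Gata3 probe (mm9 chr2:9779551-9779610, minus strand): ttaaggaatatagggggattaaagtatgga
Neither probe shares a run of 16 bases with any other probe of the array. The positions are those that the array files give, and the exon or untranslated region at each site was not determined here, since no annotation of that build was used.

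Promoters of the genes that stood out were also read, from RefSeq on the build GRCm38.p6, as the 250 bases before the start site. The table held 6 of the 9 genes, with 2 start sites for Elf5. The letters were searched on both strands for short words bound by the families of factors to which the genes themselves belong. For the TEAD family the word was GGAATG, and for the GATA family it was AGATAA. For AP-2, the family of Tfap2c, it was GCCNNNGGC, and for the CDX family of Cdx2 it was TTTATNG. No match of one word overlapped a match of another. Of 32851 promoters of the same length, 12.6% held the TEAD word, 9.99% the GATA word, 13.7% the AP-2 word and 9.81% the CDX word. Capitals mark every match, and the promoters of Cdx2 and Gata3 are shown because these were the genes over 2-fold higher in Rif1 KD cells at 72 h, whereas those of Krt8 and Krt18 are shown as a neighbouring gene pair whose products pair in 1 filament.
Cdx2 promoter (chr5:147307250-147307499, minus strand): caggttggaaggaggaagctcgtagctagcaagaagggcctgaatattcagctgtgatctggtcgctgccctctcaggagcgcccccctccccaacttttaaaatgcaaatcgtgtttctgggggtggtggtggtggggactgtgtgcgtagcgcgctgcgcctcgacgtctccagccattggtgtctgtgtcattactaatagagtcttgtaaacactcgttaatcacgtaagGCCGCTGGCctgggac
Gata3 promoter (chr2:9878601-9878850, minus strand): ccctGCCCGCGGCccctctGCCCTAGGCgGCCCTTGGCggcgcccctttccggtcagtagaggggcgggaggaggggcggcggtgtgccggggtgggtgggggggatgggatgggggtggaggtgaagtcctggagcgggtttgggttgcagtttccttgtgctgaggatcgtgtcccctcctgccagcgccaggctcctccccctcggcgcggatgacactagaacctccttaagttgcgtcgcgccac
Krt8 promoter (chr15:102004343-102004592, minus strand): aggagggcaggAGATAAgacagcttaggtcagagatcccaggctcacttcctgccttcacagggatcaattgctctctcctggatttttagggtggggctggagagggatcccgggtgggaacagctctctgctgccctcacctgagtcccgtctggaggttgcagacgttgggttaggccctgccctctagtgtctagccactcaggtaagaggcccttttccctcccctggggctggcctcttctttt
Krt18 promoter (chr15:102027966-102028215, plus strand): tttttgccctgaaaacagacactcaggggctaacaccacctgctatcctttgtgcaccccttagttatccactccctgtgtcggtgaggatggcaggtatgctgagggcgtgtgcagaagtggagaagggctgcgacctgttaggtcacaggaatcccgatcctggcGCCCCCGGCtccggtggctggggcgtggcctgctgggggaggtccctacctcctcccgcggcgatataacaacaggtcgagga
The Gata3 window held 3 AP-2 words, which began 246, 231 and 221 bases before the start site, and the Cdx2 window held 1, which began 16 bases before it. The AP-2 word has no fixed A or T, and the Gata3 window was 70% G and C against a median of 52.4% over all promoters. The share of 13.7% is not matched for this. The Krt18 window held 1 AP-2 word and the Krt8 window 1 GATA word. One of the Elf5 windows held a TEAD word, and the Eomes window held none of the 4 words. The words are a description of these windows only, and the listed start site of Gata3 lies within the span of longer models of the gene.

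The level of a probe is its processed signal divided by the 75th-percentile signal of the same array. A difference is the log2 of the level on one array minus that on another, and 2-fold was the threshold for calling a probe higher or lower. The Feature Extraction software gives an error for each signal, which covers the measurement of the spot and not the difference between cultures. As a measure of the spread between arrays, the log2 difference between control siRNA and untreated cells was taken. It had an SD of 0.256 over the 22548 probes well above background on both. This value also holds transfection and any difference in culture time, which the label of the untreated cells does not give. The share of spots well above background was 58.8% and 62.8% on the arrays of untreated and control cells, and 71.5% (48 h) and 74.1% (72 h) on those of Rif1 KD cells, a difference that moves with the groups, and its part in the values of the dim genes was not tested. Rif1 itself had levels of 5.55 (untreated), 5.42 (control siRNA), 2.15 (Rif1 KD, 48 h) and 4.15 (Rif1 KD, 72 h), so the targeted transcript was lowest at 48 h and differed from the control by -0.39 at 72 h on the log2 scale. All 9 ES cell markers examined (Pou5f1, Sox2, Nanog, Zfp42, Esrrb, Klf4, Tdgf1, Utf1 and Dppa5a) were well above background on each array, and 0 of their 14 probes differed over 2-fold from the control at either time, where 2.82% of all probes were higher and 1.00% lower at 72 h and 3.17% and 1.19% at 48 h, shares at which 0 of 14 is no result about these markers.

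Against control siRNA at 72 h, Cdx2 and Gata3 were over 2-fold higher in Rif1 KD cells at 72 h, 6 of the other 7 trophoblast genes were not, and Elf5 was too dim in control cells for a fold. Of the 11 probes that passed the filter on dim signals, 10 were bright enough on both arrays to be measured, and of these 2 were higher and 0 lower. Over all 27739 probes that passed, 2.82% were higher and 1.00% lower. The 10 probes, with 2 each for Eomes and Krt8, had a median log2 difference of 0.29, with 8 above 0. Over all probes measured on both arrays the median was -0.07, with 8973 of 24312 above 0. Whether more cells expressed the trophoblast genes or each cell held more of their RNA cannot be told apart in bulk RNA.

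**Figure D1:**
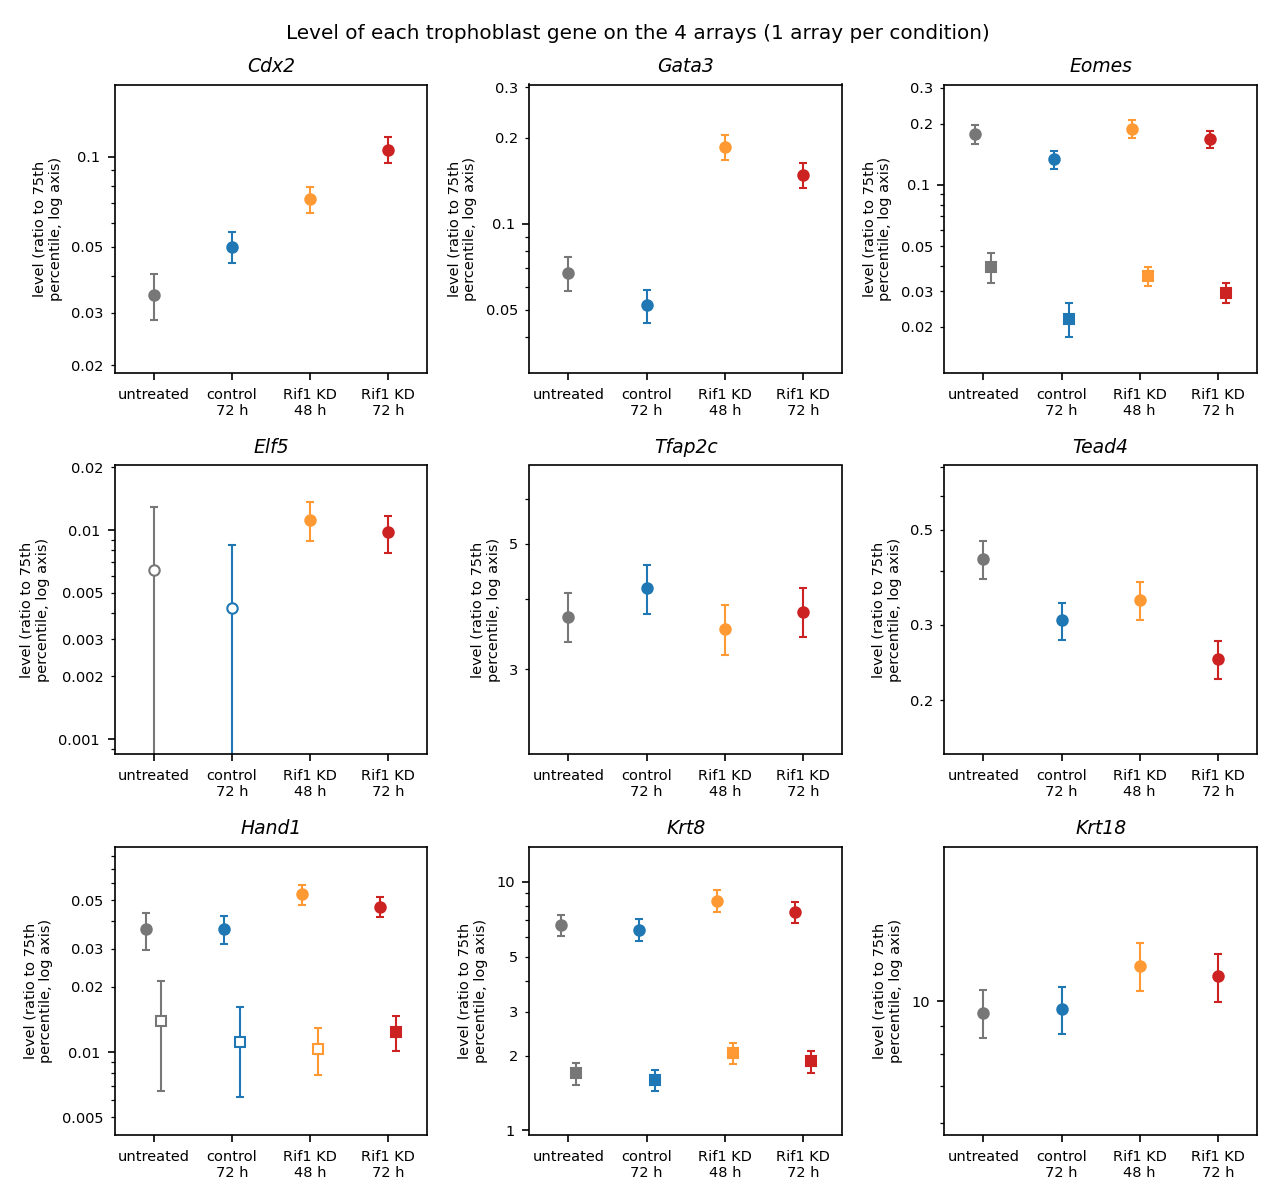
Level of each of the 9 genes on the 4 arrays (ratio to the 75th percentile of the array, log axis, each panel with its own range). Circles and squares are different probes of a gene, open symbols are signals not well above background, and bars are the error that the scanner software gives, running to the axis where it is nearly as large as the signal. Cdx2 is highest on the Rif1 KD array at 72 h (0.106), Gata3 is higher on both Rif1 KD arrays (0.186 and 0.148) than on the others, and Tead4 is lowest at 72 h (0.250).

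Cdx2, the homeobox factor that specifies the trophectoderm, had a level of 0.0344 in untreated cells and 0.0500 in control cells, and of 0.0721 (48 h) and 0.106 (72 h) in Rif1 KD cells. The software errors were 0.00608, 0.00601, 0.00739 and 0.0107 in the same order. The 4 levels lay in that order, with the highest in Rif1 KD cells at 72 h. There the level was 2.11-fold that of control siRNA, a log2 difference of 1.08 with a software error of 0.23, larger than that of 98.0% of the probes measured on both arrays. At 48 h the log2 difference from control siRNA was 0.53. Control siRNA itself was 0.54 above untreated cells, a difference as large as that of the 48 h array from the control. The signal was dim: Cdx2 belongs to the 9247 probes with the lowest mean level (at most 0.0843), of which 4.61% were over 2-fold higher at 72 h and 5.13% at 48 h. Among these probes the log2 difference between control siRNA and untreated cells had an SD of 0.44.

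Gata3, a zinc finger factor that acts beside Cdx2 under Tead4, had a level of 0.0674 in untreated cells and 0.0517 in control cells, and of 0.186 (48 h) and 0.148 (72 h) in Rif1 KD cells. The software errors were 0.00934, 0.00671, 0.0187 and 0.0149. Both Rif1 KD arrays lay above both other arrays, and the level was 2.86-fold that of the control at 72 h and 3.60-fold at 48 h. On the log2 scale these were differences of 1.52 and 1.85, each with a software error of 0.24. Control siRNA differed from untreated cells by -0.38, so against untreated cells the fold differences were smaller, 2.20 at 72 h and 2.76 at 48 h. The mean level of Gata3 over the 4 arrays was above that of the dimmest group of probes, but only through the Rif1 KD arrays. In untreated and control cells its levels were below the 0.0843 that bounds that group. Its level in control cells was close to that of Cdx2 (0.0500), so the limit of dim signals holds for Gata3 too.

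Both differences were smaller with normexp, a model-based background correction, and an offset of 50, which were applied together. The offset compresses differences between low signals by construction, and the part of each was not separated. The log2 difference at 72 h was 0.60 for Cdx2 and 0.95 for Gata3, and 0 of the genes were then over 2-fold higher. At 48 h Gata3 was then 1.21 and Cdx2 0.21 above the control. With quantile normalization the values at 72 h were 1.00 for Cdx2, at the edge of 2-fold, and 1.45 for Gata3, and with the deposited ratios they were 1.08 and 1.52. Against untreated cells Cdx2 was 3.07-fold higher at 72 h and 2.10-fold higher at 48 h.

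**Figure D2:**
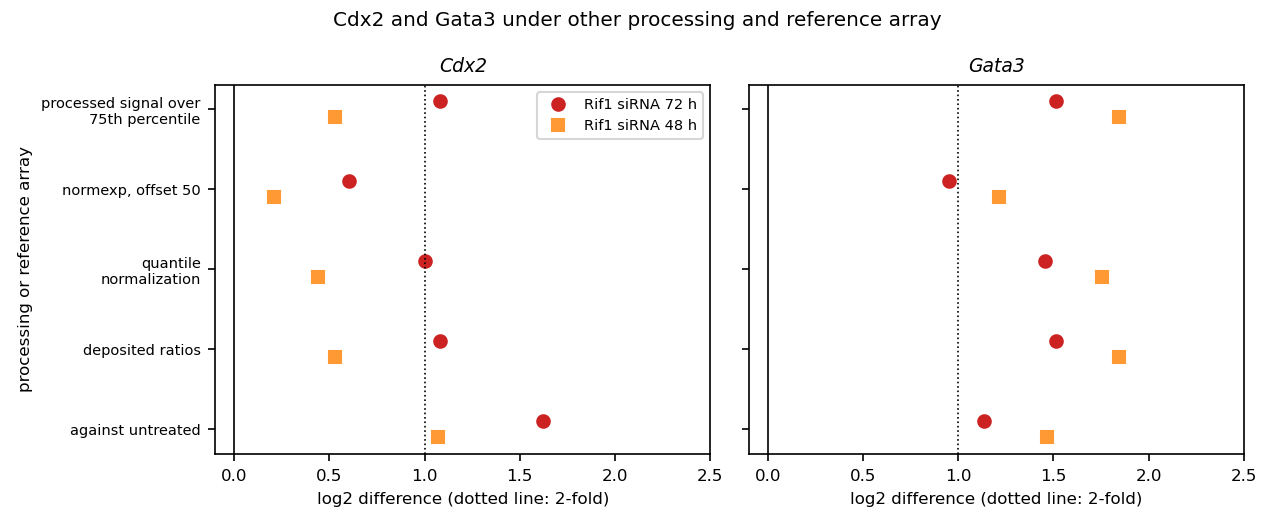
Log2 difference of Cdx2 and Gata3 in Rif1 KD cells at 72 h (circles) and 48 h (squares) under different processing or reference arrays, with the dotted line at 2-fold. All values lie above 0, and under normexp those at 72 h are 0.60 and 0.95, below 2-fold.

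Of the factors of trophoblast stem cells, Eomes did not reach 2-fold and Elf5 was too dim for a fold. Eomes, a T-box factor that also marks the primitive streak and is needed there for endoderm and mesoderm, was read by 2 probes 764 bases apart. The first probe (A_55_P2150717; mm9 chr9:118394425-118394484) had a level of 0.178 (untreated), 0.133 (control siRNA), 0.189 (Rif1 KD, 48 h) and 0.168 (Rif1 KD, 72 h). The second (A_55_P2184434; mm9 chr9:118395189-118395248) had 0.0394, 0.0219, 0.0356 and 0.0295 in the same order. For both probes the control siRNA array was the lowest, and the Rif1 KD array at 48 h was above that at 72 h. Against control siRNA the first probe differed by 0.33 at 72 h and 0.50 at 48 h on the log2 scale, and the second by 0.42 and 0.70. Against untreated cells, however, the first probe was at -0.08 at 72 h and 0.09 at 48 h, and the second at -0.42 and -0.14. Neither probe was above untreated cells by as much as it was above the control. Under normexp the second probe was at -0.02 against control siRNA at 72 h, so the direction of that probe was not kept, and the first was at 0.20.

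Elf5, an ETS factor whose methylated promoter separates the embryonic from the trophoblast lineage, was read by 1 probe (A_51_P455866; mm9 chr2:103290958-103291017). Its level was 0.00644 in untreated cells and 0.00424 with control siRNA, neither well above background, and 0.0112 at 48 h and 0.00976 at 72 h of Rif1 KD, both well above it. These levels lie below the lowest levels that count as well above background on the untreated array (0.0236) and the control array (0.0159), so the lower bound of a fold is under 1 and none is given. With the signals taken as given, the log2 difference was 1.20 at 72 h and 1.40 at 48 h. The software errors of these were 1.46 and 1.47, larger than the differences, so they are not read as folds. The probe shares runs of 16 bases with 3 other probes, and whether it reads Elf5 alone was not tested.

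Tfap2c, the AP-2 factor that is also active in germ cells and ES cells, and Tead4 were well above background on each array. The Tfap2c probe (A_51_P418820; mm9 chr2:172383860-172383919) had a level of 3.72 (untreated), 4.17 (control siRNA), 3.54 (Rif1 KD, 48 h) and 3.79 (Rif1 KD, 72 h). Its log2 difference from control siRNA was -0.14 at 72 h and -0.24 at 48 h, both within the SD of 0.256 between the arrays without Rif1 siRNA. The Tead4 probe (A_55_P2159870; mm9 chr6:128177161-128177220) had 0.428, 0.307, 0.343 and 0.250 in the same order. Tead4, the factor that acts upstream of Cdx2, was highest in untreated cells and lowest in Rif1 KD cells at 72 h. On the log2 scale it differed from control siRNA by -0.30 at 72 h and by 0.16 at 48 h, and control siRNA differed from untreated cells by -0.48. The probe shares a run of 16 bases with 1 other probe, that of Mbtps1.

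Hand1, a basic helix-loop-helix factor of trophoblast giant cells that also acts in the heart, was read by 2 probes. The probe A_51_P342549 (mm9 chr11:57642342-57642401) had a level of 0.0367 (untreated), 0.0368 (control siRNA), 0.0534 (Rif1 KD, 48 h) and 0.0467 (Rif1 KD, 72 h). Both Rif1 KD arrays were above both others, by 0.34 at 72 h and 0.54 at 48 h against control siRNA on the log2 scale. Under normexp the difference at 72 h was -0.04, so its direction was not kept. The other probe (A_55_P2148366; mm9 chr11:57646257-57646316) did not pass the filter and was well above background on the Rif1 KD array at 72 h alone, with levels of 0.0139, 0.0112, 0.0104 and 0.0123.

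Krt8 and Krt18, the keratins that pair in simple epithelia and the first keratins of the trophectoderm, were bright on each array. The Krt8 probe A_66_P128079 (mm9 chr15:101827138-101827197) had a level of 6.70 (untreated), 6.42 (control siRNA), 8.41 (Rif1 KD, 48 h) and 7.57 (Rif1 KD, 72 h). The Krt8 probe A_55_P2128501 (mm9 chr15:101828827-101828886) had 1.70, 1.60, 2.05 and 1.89. The Krt18 probe (A_51_P324814; mm9 chr15:101862341-101862400) had 9.51, 9.66, 11.6 and 11.1. All 3 probes had the 2 Rif1 KD arrays above the 2 others, with 48 h above 72 h. The log2 differences from control siRNA at 72 h were 0.24 and 0.25 for Krt8 and 0.20 for Krt18, and at 48 h they were 0.39, 0.36 and 0.26. Those at 72 h were within the SD of 0.256 between the arrays without Rif1 siRNA, those at 48 h above it. The genes are neighbours, the nearer Krt8 probe lying 33.5 kb from the Krt18 probe, and 2 predicted genes stand between them in the RefSeq table.

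**Figure D3:**
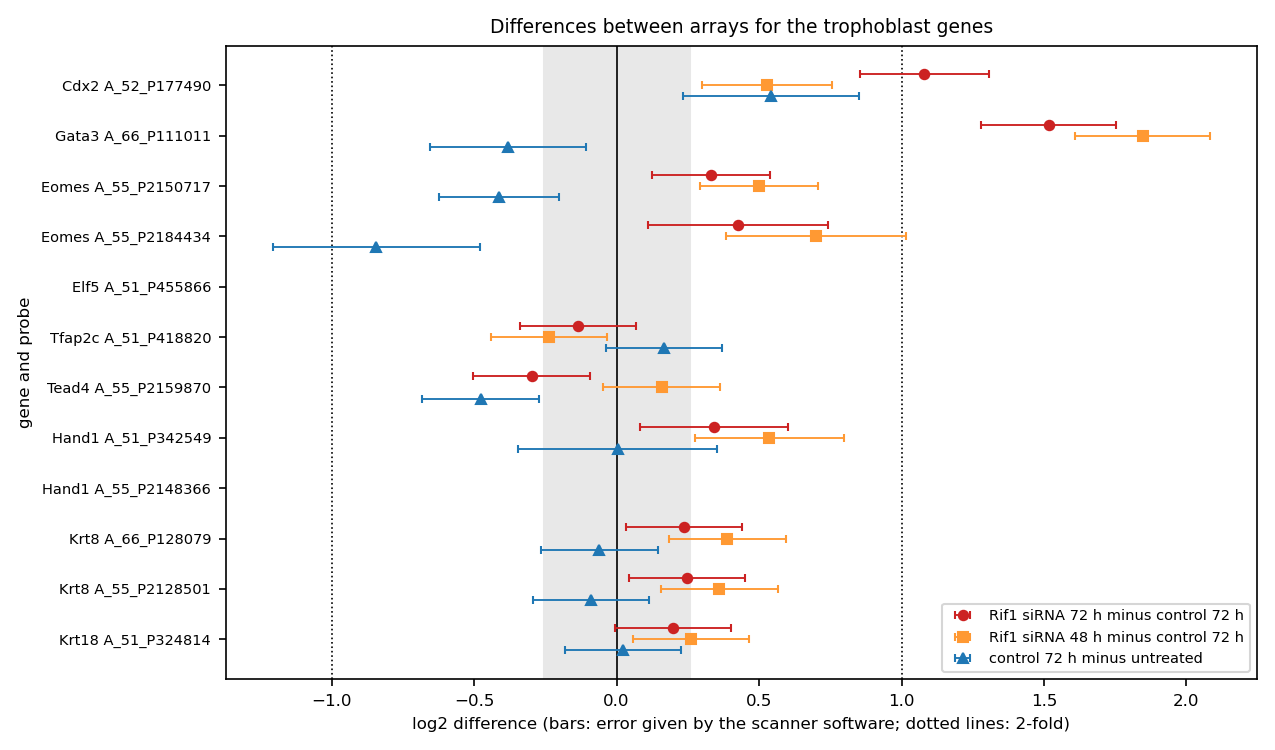
Log2 difference of each probe for Rif1 siRNA at 72 h against control siRNA, Rif1 siRNA at 48 h against the same control array, and control siRNA against untreated cells. Bars are the error given by the scanner software, the grey band is the SD of 0.256 between control siRNA and untreated cells over all probes, and dotted lines mark 2-fold. Only Cdx2 (72 h) and Gata3 (both times) lie beyond 2-fold, Eomes is below untreated cells with control siRNA, and the rows of Elf5 and of the second Hand1 probe are empty because no difference could be given.

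At 48 h of Rif1 KD, Gata3 was the only one of the 10 measured probes over 2-fold above control siRNA, and 0 were below. The shares over all probes were 3.17% higher and 1.19% lower. The median log2 difference of the 10 probes was 0.44, with 9 above 0. Over all probes measured on both arrays it was -0.07, with 9386 of 24266 above 0. The median of the 10 probes was 0.24 under normexp and 0.28 against untreated cells. Tfap2c (-0.07), Tead4 (-0.32) and the second Eomes probe (-0.14) were lower than in untreated cells. At 72 h the median of the 10 probes was 0.20 under normexp and 0.17 against untreated cells. The control array had been harvested at 72 h, so the times of this comparison differ by design.

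Between control siRNA and untreated cells, 0 of the 10 measured probes were over 2-fold higher and 0 lower, while the shares over all probes were 0.584% and 1.02%. The median log2 difference was -0.08. The widest of them were the second Eomes probe at -0.84, Cdx2 at 0.54 and Tead4 at -0.48. From 48 h to 72 h of Rif1 KD, 0 of the 11 probes measured on both arrays differed over 2-fold, against 0.490% higher and 0.678% lower over all probes. Only Cdx2 and Tfap2c were higher at 72 h than at 48 h, by 0.55 and 0.10 on the log2 scale, and the other 9 probes were lower, with Tead4 furthest at -0.46.

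Wider lists of the trophoblast programme had 0 probes measured on both arrays that reached 2-fold at 72 h. With 2.82% of all probes higher and 1.00% lower at 72 h, and 3.17% and 1.19% at 48 h, few calls would come from lists of this size in any case, so neither the counts of 0 nor the single calls at 48 h set these genes apart. The other factors and signals of trophectoderm and trophoblast stem cells (18 of 20 listed genes with a probe) had 21 probes that passed the filter, of which 0 were over 2-fold higher or lower at 72 h and 0 at 48 h. Their median log2 difference at 72 h was 0.03, and the highest was that of Msx2 at 0.73, a homeobox gene. Zfp281, named for the highest signal of its list at 72 h, was at 8.55 there and 9.19 with control siRNA. The genes of the Hippo and Notch pathways that act with Tead4 upstream of Cdx2 had 30 such probes, again with 0 higher and 0 lower at either time and a median of 0.06 at 72 h. Yap1, the coactivator of Tead4, had a level of 14.2 (untreated), 15.1 (control siRNA), 14.4 (Rif1 KD, 48 h) and 15.8 (Rif1 KD, 72 h).

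The keratin, junction and transport genes of the trophectoderm epithelium had 28 probes that passed the filter, of which 0 were over 2-fold higher or lower at 72 h, with a median log2 difference of -0.08. At 48 h 1 was higher, Krt20, an epithelial keratin, at 1.29. Krt20 belongs to the 9247 probes with the lowest mean level, of which 5.13% were higher at 48 h. Krt20 had a level of 0.0316 (untreated), 0.0312 (control siRNA), 0.0761 (Rif1 KD, 48 h) and 0.0577 (Rif1 KD, 72 h). Aqp3, a water and glycerol channel, had 1.33, 1.38, 2.66 and 2.57, which came close to 2-fold at both times (0.90 at 72 h and 0.95 at 48 h on the log2 scale). Slc2a3, a glucose transporter named for the highest signal of its list, had a level of 34.0 with control siRNA and 34.5 at 72 h. The genes of later placental trophoblast had 23 such probes, with 0 higher and 0 lower at 72 h, a median of 0.14, and 1 higher at 48 h, a probe of Gcm1 at 1.16, which belongs to the same dim probes. Gcm1, the factor of the labyrinth, was read by 4 probes, and the other 3 differed at 48 h by 0.67 to 0.77. Of the 24 placental genes with a probe, 13 were well above background on each of the 4 arrays and 7 (Tpbpa, Tpbpb, Ctsq, Ctsj, Hsd3b6, Pcdh12 and Psg17) on none. Prl3b1 and Prl3d1, hormones of trophoblast giant cells, were among the 13. Prl3b1 had a level of 0.154 (untreated), 0.150 (control siRNA), 0.118 (Rif1 KD, 48 h) and 0.127 (Rif1 KD, 72 h), and the log2 difference from control siRNA at 72 h was -0.24. One Prl3d1 probe had 0.0500, 0.0466, 0.0477 and 0.0449 in the same order, a log2 difference of -0.05 at 72 h, and the other, which did not pass the filter, was well above background with control siRNA only, at 0.0282. Slc16a3, a lactate transporter named for the highest signal of its list, differed from control siRNA at 72 h by -0.37 on the log2 scale.

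**Figure D4:**
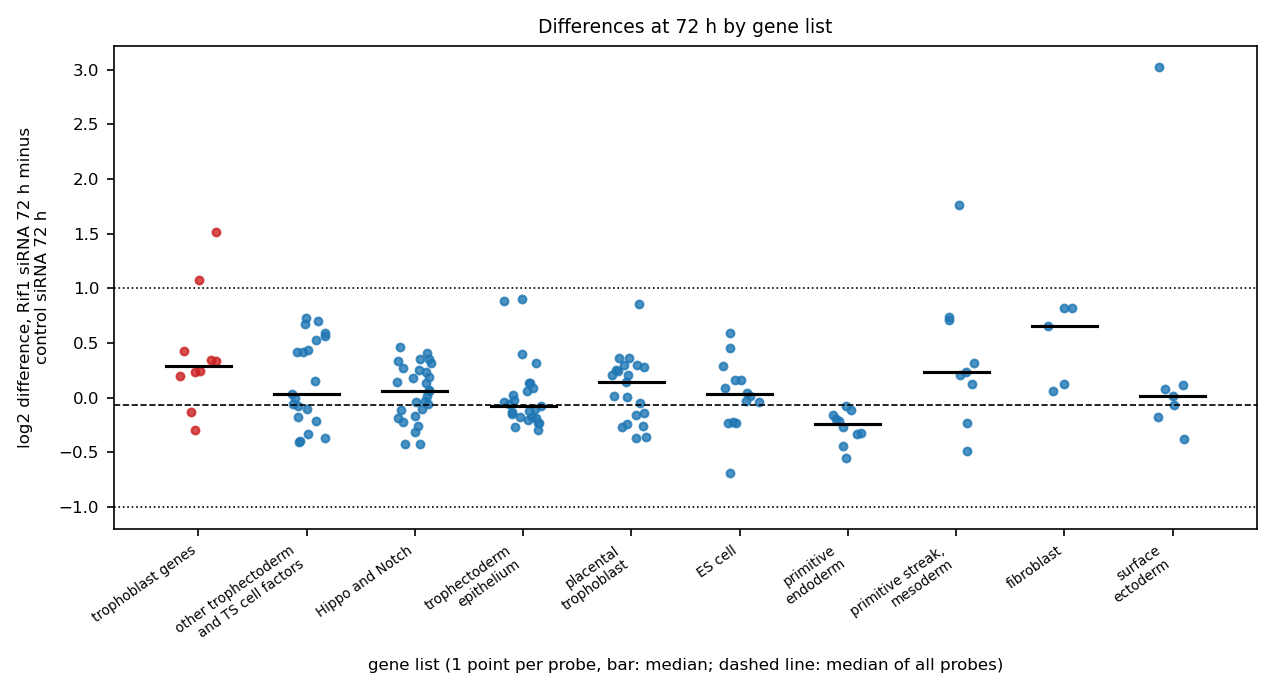
Log2 difference at 72 h (Rif1 siRNA minus control siRNA) for the probes of each gene list that passed the filter and were well above background on both arrays (1 point per probe, thick bar the median of the list). The dashed line is the median of all probes (-0.07) and dotted lines mark 2-fold. The trophoblast genes have a median of 0.29 with Cdx2 and Gata3 above 2-fold, and the 4 lists of the wider trophoblast programme beside them have 0 points beyond it.

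Some of the genes also belong to other lineages, so markers of these were read beside them. Of 12 genes of the primitive streak and mesoderm, where Eomes is also expressed, 5 (untreated), 7 (control siRNA), 9 (Rif1 KD, 48 h) and 8 (Rif1 KD, 72 h) were well above background, and their summed level was 3.43, 3.14, 3.80 and 3.29. For this and the other lineages, the shares over all probes were 2.82% higher and 1.00% lower at 72 h, 3.17% and 1.19% at 48 h, and, among the 9247 probes with the lowest mean level, to which Gsc belongs, 4.61% and 5.13% higher at 72 h and 48 h. Of the 10 probes that passed, 1 was higher at 72 h, Gsc at 1.76, and at 48 h 3 were higher (Evx1 at 2.39, Gsc at 1.57 and Cdx1 at 1.15) and 1 was lower (Mesp1 at -1.42). Evx1 had a level of 0.155 (untreated), 0.0353 (control siRNA), 0.185 (Rif1 KD, 48 h) and 0.0589 (Rif1 KD, 72 h), so, as for Eomes, the control was the lowest array. T (brachyury), the defining gene of the streak, differed by 0.23 at 72 h and 0.45 at 48 h, and Mixl1 was not well above background on any array. Kdr, a receptor of vascular endothelial growth factor, was named for the highest signal of this list. Its brighter probe differed by -0.23 at 72 h and -0.22 at 48 h. Its other probe lay the other way, at 0.32 and 0.95. Of 10 primitive endoderm genes, Afp was at least 2.70-fold higher at 72 h and at least 3.36-fold higher at 48 h than in control cells, where it was not well above background. The 10 other probes measured on both arrays were all below 0 at 72 h, with a median of -0.24, and Gata6, the endoderm factor with the highest signal of its list, lay at -0.34.

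Of 7 genes of surface ectoderm, a tissue that expresses Gata3 and Tfap2c, 6 were well above background in untreated cells and with control siRNA and 7 in Rif1 KD cells. Their summed level was 4.77, 4.45, 13.2 and 15.0, and most of the difference lay in 1 probe of Trp63, whose level was 1.51, 1.53, 10.7 and 12.4. The log2 difference of that probe was 3.02 at 72 h and 2.80 at 48 h. A second Trp63 probe had -0.06 at 72 h and 1.39 at 48 h, and the remaining 2 were dim on each array. The level of the second probe was 0.0120 (untreated, not well above background), 0.0179 (control siRNA), 0.0469 (Rif1 KD, 48 h) and 0.0171 (Rif1 KD, 72 h). Its control level was near the lowest that counts as well above background on that array (0.0159). The measured probes of this gene thus disagreed at 72 h. Both were over 2-fold higher at 48 h, the second from this dim signal. Krt5 and Krt14, the keratins that define that epithelium, differed by 0.08 and 0.01 at 72 h. Of 8 fibroblast genes, 6 were well above background at 72 h and 5 with control siRNA, with a summed level of 4.49 and 3.82, and 0 of 6 probes reached 2-fold at 72 h. The 5 fibroblast probes measured on both arrays were all above control siRNA at 72 h, with a median log2 difference of 0.65, against 0.29 for the trophoblast genes, and Col1a1 and Col1a2, the chains of type I collagen, lay at 0.82 each. Thy1, a surface glycoprotein named for the highest signal of its list, lay at 0.06. At 48 h the order of the medians was reversed, with 0.31 for the fibroblast probes and 0.44 for the trophoblast genes. The part of cells of these other lineages in the differences of Cdx2, Gata3 and Eomes was not tested.

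Gata3 had the widest range over the 4 arrays (1.85 on the log2 scale) among the probes of the 9 genes that were well above background on each of them. Among all 22518 probes well above background on the 4 arrays, the 5 whose centred log2 levels over the 4 arrays lay closest to it, by Euclidean distance, were those of Gm14625 (0.078), Tspan18 (0.11), Nlrp4c (0.17) and a pair of transcripts without a gene name in the array files. With 4 arrays many probes come close to any pattern, and the distances are a description. Gm14625 had a level of 0.0961 (untreated), 0.0748 (control siRNA), 0.256 (Rif1 KD, 48 h) and 0.219 (Rif1 KD, 72 h).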

How the data were processed

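Gene expression was measured on 4 one-color Agilent arrays, 1 per condition, which were grouped by their sample labels. The authors deposited the scanner files of Agilent Feature Extraction 11.5.1.1, the version being that of the submitters' processing notes. In these deposited files the processed signal is an intensity per spot, after background subtraction and detrending by the software. A deposited value table holds the same signals as a linear ratio, each array scaled to its 75th percentile. Positions are on mm9.

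Here log2 levels were taken as the processed signal over the 75th percentile of 43020 spots. Outlier spots (120 to 152 per array, 0 of them of the 9 genes) were left out, and 0 spots were saturated. A probe passed the filter if it reached the 20th percentile on at least 1 array and at least 2 of the 4 arrays flagged it as detected or compromised. Where a probe was dim on one side of a comparison, that side took the larger of its own signal and the lowest level well above background on its array, and the fold is a lower bound. No fold is given where that bound is under 1 or both signals are dim. The 4 arrays were scanned together on a slide, and with 1 array per condition there was no test. A second experiment that the methods mention was not analysed here.

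The 9 genes, all gene lists and the alternatives were chosen with earlier results of these data known. The genes named are the 9, Rif1, the probes of each list over 2-fold at 72 h with its brightest gene, and the probes most like Gata3. Others were picked after their values were seen. The RefSeq table matched 27508 of the 29149 probes that carry such an accession. Rhox4b, Plet1 and Prl2c2 had no probe of that name. Alternatives were normexp (offset 50), quantile normalization, the deposited ratios, dim signals as given, outlier spots kept, other filters, a 4-fold threshold and untreated cells as the reference. Scripts were tested on simulated data. Python 3.11.15, numpy 2.4.6, pandas 2.3.3, scipy 1.17.1, matplotlib 3.10.9, R 4.3.3 and limma 3.58.1 were used.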

Additional observations from a re-analysis of the deposited data

Results flagged for a closer look

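Tead4 lay on opposite sides of the shared control array at both times of Rif1 siRNA, at 0.16 (log2) above it at 48 h and at -0.30 at 72 h. The difference between the times was not tested, since each condition had 1 array.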

How the results depend on the processing

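A difference counts as moved when an alternative shifted it by over 0.256 (log2), the spread of control siRNA against untreated cells, and a count when it changed by over 1.5 times. No paired analysis was possible because there is 1 array for each condition and no test was made. Keeping outlier spots and both other filters on dim probes returned the same values for the 9 genes and so say nothing of their stability. Under the 6 other settings, 5 of 66 counts and medians moved. The number of trophoblast probes over 2-fold higher at 72 h was 0 under normexp and 0 with a 4-fold threshold, against 2. With dim signals as given it was 3, where Elf5 is added, which is within the limit of 1.5 times. At 48 h it was 0 with a 4-fold threshold, 2 with dim signals as given, where Elf5 is added, and 2 against untreated cells, where Cdx2 is added, against 1. A higher threshold gives fewer by construction, and for normexp with its offset and for untreated cells as the reference the cause was not tested. Single probes were compared only where the main setting gave a value. Under the 4 settings that changed any of these, 20 of 143 differences moved, 10 of them under normexp and 10 against untreated cells. Elf5, which gains a value against control siRNA with dim signals as given, is not among them for that comparison. Dim signals limit what can be said of Elf5, the second Hand1 probe and the 7 placental genes that were dim on every array, for which no fold is given.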
